A study of Rattus norvegicus with 4 samples.

Results

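miR-378a is a microRNA (miRNA), a short RNA that pairs with messenger RNAs and lowers their translation or stability. Both arms of its hairpin, rno-miR-378a-3p and rno-miR-378a-5p (miR-378a-3p and miR-378a-5p below), were followed through the healing of a broken bone in control and diabetic rats. They are 2 of the 727 rat miRNA probes of the array and were chosen by their names in the scanner files. Each arm has 1 spot per array. The choice was made with earlier results of these arrays known, so the values below are descriptions.

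The gene of miR-378a lies in an intron of Ppargc1b, which codes for PGC-1β, a coactivator of genes of mitochondria and of lipid metabolism. The miRNA is abundant in skeletal muscle, heart and brown fat. In mice both arms have been linked to energy use: animals that lack them burn more fat and resist weight gain, and the 3p arm represses carnitine acetyltransferase, whereas the 5p arm represses the Mediator subunit MED13. No fat, liver or muscle sample was analysed here, and the tissue was callus, the repair tissue that forms around a fracture.

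All animals were male Sprague-Dawley rats of 12 weeks with a closed transverse fracture of the right femoral shaft, held by a wire in the marrow canal. Diabetic rats had received 1 intravenous injection of 40 mg/kg streptozotocin, a toxin of insulin-producing cells, and had a blood glucose above 300 mg/dl. Control rats had received sodium chloride and had normal blood glucose. Callus was taken on day 5 or day 11 after the fracture, and each of the 4 arrays was given the combined tissue of 5 animals (control and diabetic on each day). With 1 array per group no difference has a replicate check, no p-value was computed, and the spread between animals is not known.

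The mature sequences of both arms are shown because their seed, bases 2 to 8 in capitals, sets which messenger RNAs each arm can pair with. They are RefSeq's for build GRCr8, 5′ to 3′.
miR-378a-3p: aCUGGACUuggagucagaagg
miR-378a-5p: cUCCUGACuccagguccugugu
The 3p arm has 21 bases at chr18:57128925-57128945 and the 5p arm 22 bases at chr18:57128962-57128983, both on the minus strand, with 16 bases between them. Both lie within the bounds of Ppargc1b, which runs on the same strand. The seeds differ, and so do the sites that pair with them, AGUCCAG for the 3p arm and GUCAGGA for the 5p arm. RefSeq gave a sequence for 653 of the 727 array miRNAs, and among these no other miRNA had the seed of either arm. The array also held 1 probe named miR-378b. Its sequence was not among the 653, so its seed was not compared with those of the arms. The values of miR-378b are set beside those of miR-378a-3p.

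The arrays carried 1504 blank spots, which hold no probe. A level below is the spot minus the mean of the blank spots, multiplied by 1 factor per array that sets the median over 400 miRNAs, those detected on every array, to 100. Detected means a spot above the blank mean plus 2 blank SDs. Between 482 and 560 miRNAs were detected per array. Both arms of miR-140, a marker of chondrocytes, were detected on all 4. The array of diabetic callus of day 11 was the dimmest, with a blank mean of 73.4 against 117 to 141. Errors given as ± are technical errors on the log2 scale, made from the SD of the spike-in spots and of the blank spots. They leave out animals, pools, hybridisations and the local background around a spot.

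Both arms were detected in every pool. The scanner read the 3p spot of the day 5 pools at 1963 (control) and 1458 (diabetic), and that of the day 11 pools at 1113 (control) and 394 (diabetic). These readings were between 111 and 304 blank SDs above the blank mean. The 5p spot was dim, at 241, 231, 225 and 120 on the same arrays, or 12.0 to 20.1 blank SDs above the blank mean. The 3p spot was therefore far above the blank spots on each array. The 5p spot was close enough to them that the blank spread adds to its error. The local background around the 3p spot was 6.73, 15.6, 60.2 and 21.4% of the spot in this order, so the control day 11 array stood apart. On that array 50.8% of bright spots, those 10 or more blank SDs over the blank mean, had a local background of at least 50% of the spot. The share was 41.4% on the diabetic day 11 array, and 13.7% (control) and 9.89% (diabetic) on the day 5 arrays. Such spots were thus more common on both day 11 arrays, so that this trait of the arrays cannot be told apart from the day. Around the 5p spot the local background was between 42.6 and 56.5% of the spot on all 4 arrays. Values with the local background taken off, by limma's normexp method with quantile normalisation, are given beside the differences of the miR-378 probes and, for the lists below, where the direction of a value in the text changes with them. Across the miRNA probes the local background followed the spot, with a correlation of their log2 intensities of 0.758 to 0.953 on the 4 arrays, which is why it was not used for the levels. For the 3p spot itself it did not follow the spot from array to array.

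**Figure D1:**
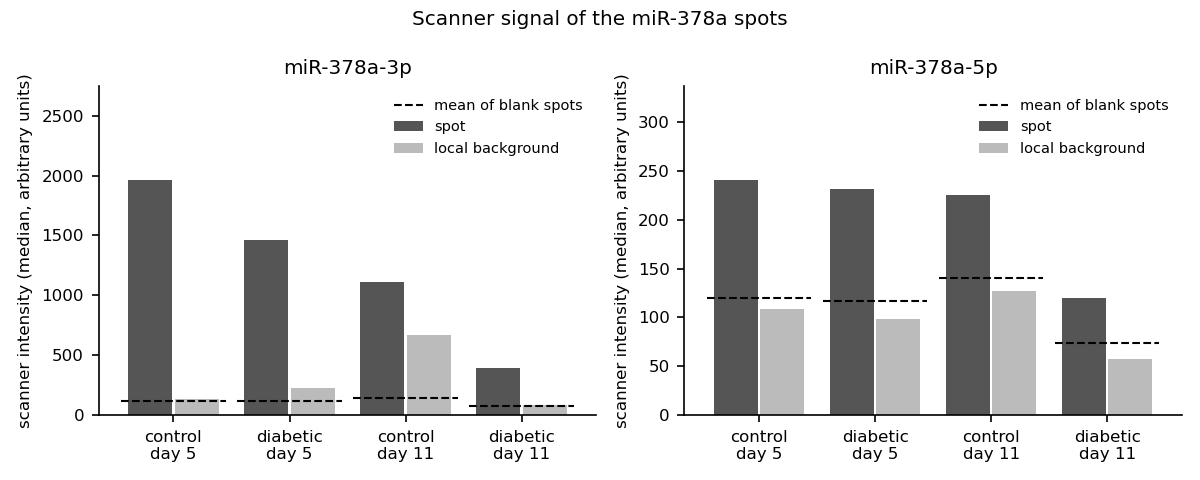
Scanner intensity of the miR-378a-3p (left) and miR-378a-5p (right) spot and of its local background on each array, in arbitrary units on linear axes that differ between panels, with the mean of the blank spots as a dashed line. The 3p spot is well above the blank line on all 4 arrays, and its local background of 670 on the control day 11 array is the highest of the 4.

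The main difference of miR-378a-3p was between the days. The day 5 pools were at 1524 (control) and 1324 (diabetic), the day 11 pools at 791 (control) and 658 (diabetic). Both day 5 pools were above both day 11 pools, and on each day the control pool was above the diabetic one. Each neighbouring pair in this order was apart by more than its technical error, with a step of 0.74 ± 0.13 log2 between diabetic day 5 and control day 11.

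In control callus miR-378a-3p was 1.93-fold lower on day 11 than on day 5 (log2 -0.95 ± 0.10). In diabetic callus it was 2.01-fold lower (log2 -1.01 ± 0.12). The first value lies just outside and the second just inside a 2-fold limit, and they differ by less than the technical error, with a difference of -0.063 ± 0.16 between the time courses that was not tested over animals. At the 2-fold limit 1 of the 2 arms was thus lower in diabetic callus, where 8.11% of the 444 miRNAs detected on both arrays were at least 2-fold lower and 11.9% were 2-fold different in either direction. In control callus neither arm reached the limit, and 13.9% of 446 miRNAs did. Of all miRNAs detected on both arrays, 8.74% had a lower value than miR-378a-3p in control callus and 7.66% in diabetic callus, while the medians of all these differences were 0.028 and 0.0065. With the local background taken off, the differences were -1.14 and -0.74.

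miR-378a-5p differed less between the days. The day 5 pools were at 99.9 (control) and 113 (diabetic), the day 11 pools at 68.7 (control) and 95.3 (diabetic). The control pool of day 11 was the lowest, and the diabetic pool of day 11 and the control pool of day 5 were closer than their technical error (0.067 ± 0.15 log2). The 5p arm was 1.45-fold lower on day 11 in control callus (log2 -0.54 ± 0.17) and 1.18-fold lower in diabetic callus (log2 -0.24 ± 0.17). With the local background taken off these differences were -0.053 and 0.022, so that the lower level on day 11 depends on the processing. That setting also changes the normalisation. Normexp on the blank mean gave -0.31 in control and -0.14 in diabetic callus.

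**Figure D2:**
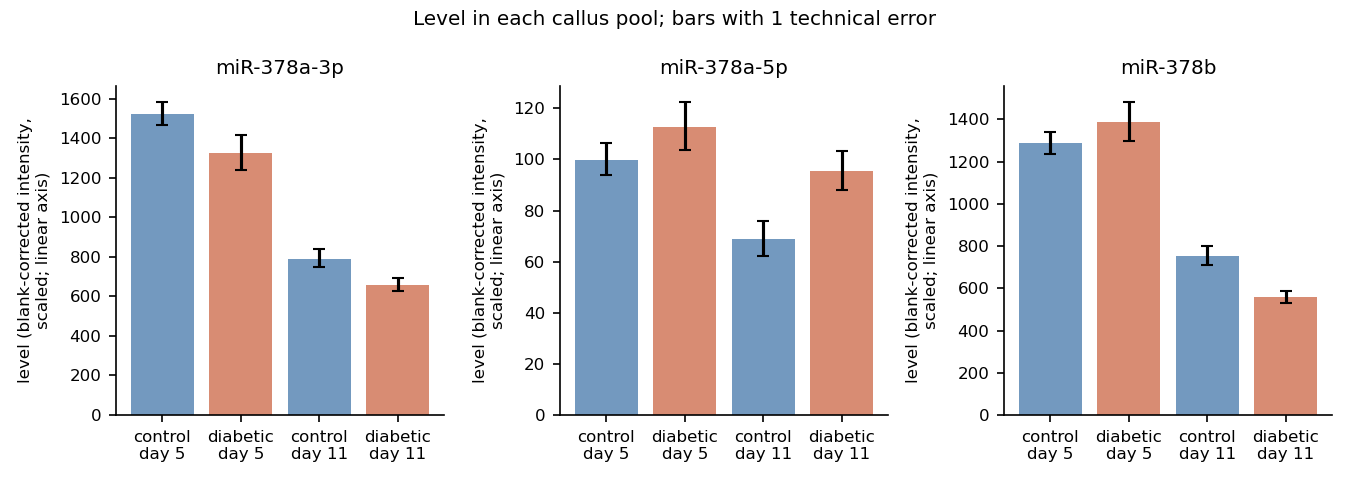
Level of miR-378a-3p, miR-378a-5p and miR-378b in each of the 4 callus pools (blank-corrected, scaled intensity, linear axes that differ between panels). Bars are single arrays in blue for control and orange for diabetic rats, error lines are 1 technical error, and levels cannot be compared between panels because each probe binds differently. The 3p arm goes from 1524 and 1324 on day 5 to 791 and 658 on day 11, and the lowest 5p bar is control day 11 at 68.7.

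Between diabetic and control callus both arms differed little, and in opposite directions except under 1 processing setting on each day. On day 5 miR-378a-3p was 1.15-fold lower in diabetic than in control callus (log2 -0.20 ± 0.11), and miR-378a-5p was 1.13-fold higher (log2 0.18 ± 0.15). On day 11 the 3p arm was 1.20-fold lower (log2 -0.27 ± 0.11) and the 5p arm 1.39-fold higher (log2 0.47 ± 0.19). Neither arm was 2-fold different on either day. On day 5 6.84% of 468 miRNAs were, and on day 11 8.78% of 433.

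These differences lie within the bulk of the array. On day 5 28.2% of the miRNAs had a lower difference than miR-378a-3p and 35.7% a higher one than miR-378a-5p. On day 11 25.9% were below the 3p arm and 16.6% above the 5p arm. The 3p arm's direction also depended on the processing. It was 0.090 on day 11 with the local background taken off, where the control spot had a local background of 60.2%, and 0.099 on day 5 in the authors' deposited values, whose median over all miRNAs was itself shifted by 0.34. The 5p arm was higher in diabetic callus under each of the 6 settings tried, at 0.11 to 0.48 on day 5 and 0.23 to 0.54 on day 11. The difference between the days of the diabetic minus control value was 0.30 ± 0.24 for the 5p arm and was not tested over animals.

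**Figure D3:**
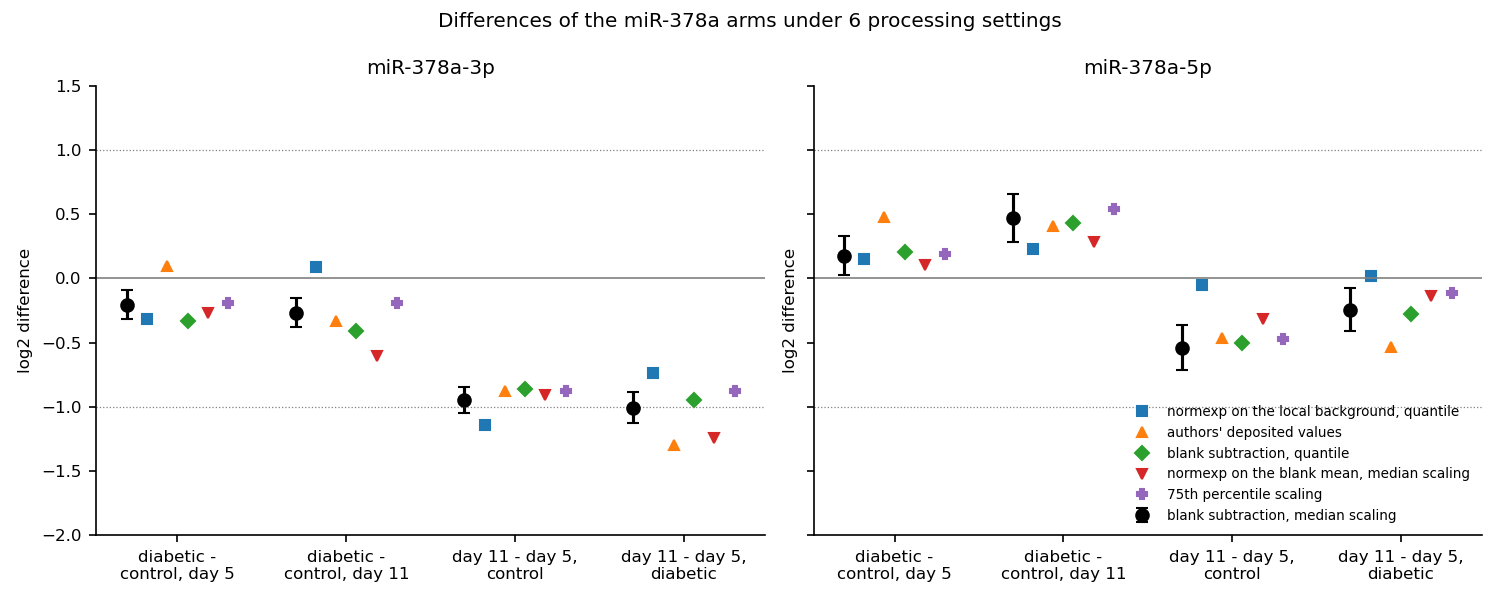
Log2 difference of each arm (left miR-378a-3p, right miR-378a-5p) in the 4 comparisons under 6 processing settings. Black circles are the values of the text with 1 technical error, coloured symbols the alternatives, and dotted lines mark 2-fold. The 3p values for day 11 minus day 5 stay between -1.30 and -0.74 in all settings, and those for diabetic minus control cross 0 in 1 setting on each day.

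The arms were then set against each other within the arrays, where the scaling of an array cancels. The 3p arm's log2 difference minus that of the 5p arm was -0.38 ± 0.19 for diabetic minus control on day 5 and -0.74 ± 0.22 on day 11. For day 11 minus day 5 it was -0.41 ± 0.20 in control and -0.77 ± 0.20 in diabetic callus. The 3p arm was thus lower relative to the 5p arm in all 4 comparisons, by more than the technical error, and these comparisons share arrays. With the local background taken off, the value for day 11 was -0.14 and those for the other 3 comparisons -0.47, -1.09 and -0.76. Unequal arms were common on these arrays. Among 101 miRNAs with both arms detected on the day 11 arrays, the median distance between the arms was 0.43 log2, 48 had arms of opposite sign, and 20.8% had a larger distance than miR-378a. On day 5 48.8% of 127 pairs had a larger distance. For day 11 minus day 5 the share was 56.5% of 108 pairs in control callus, where the median distance was 0.50. In diabetic callus it was 25.5% of 110 pairs.

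miR-378b, named as a relative of miR-378a and listed by RefSeq on another chromosome, was also lower on day 11 than on day 5 in both groups. The day 5 pools were at 1287 (control) and 1388 (diabetic), the day 11 pools at 754 (control) and 560 (diabetic). Both day 5 pools were again above both day 11 pools. It was 1.71-fold lower on day 11 in control callus (log2 -0.77 ± 0.10) and 2.48-fold lower in diabetic callus (log2 -1.31 ± 0.12). The diabetic minus control difference was 0.11 ± 0.11 on day 5 and -0.43 ± 0.11 on day 11, a difference between the days of -0.54 ± 0.16, against -0.063 ± 0.16 for miR-378a-3p. Its 2 day 5 pools were closer than their technical error (a step of 0.109 with an error of 0.111), so which of them was highest is not settled. The highest pool of miR-378a-3p was control day 5. The diabetic minus control value of miR-378a-3p minus that of miR-378b was thus -0.31 ± 0.16 on day 5 and 0.16 ± 0.16 on day 11. After the same local correction miR-378b was at -0.21 on day 5 and -0.87 on day 11 for diabetic minus control, and at -0.22 in control and -0.88 in diabetic callus for day 11 minus day 5. Whether the miR-378b probe also binds miR-378a-3p was not tested.

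**Figure D4:**
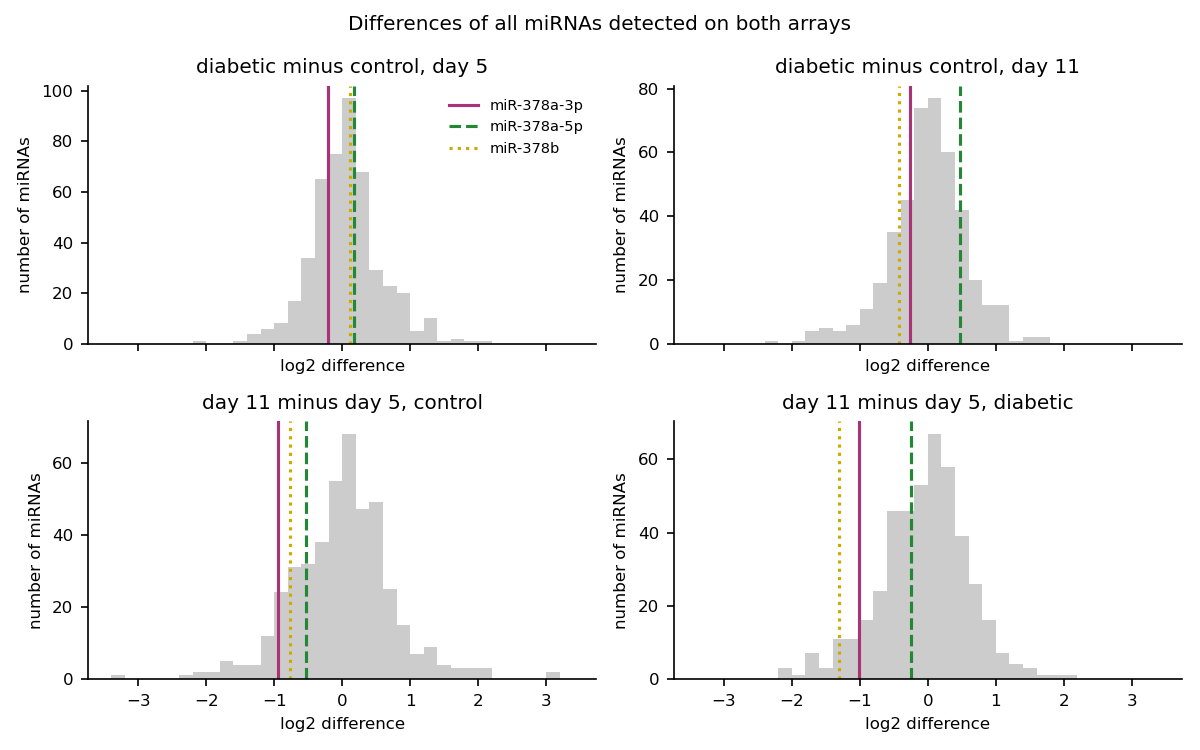
Log2 differences of all miRNAs detected on both arrays of a comparison (grey counts in bins of 0.2), with miR-378a-3p (solid), miR-378a-5p (dashed) and miR-378b (dotted). In the upper panels, diabetic minus control, all 3 lines lie in the bulk, and in the lower panels, day 11 minus day 5, miR-378a-3p is at -0.95 and -1.01 in the left flank.

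By a likeness measure over the 4 arrays, the Euclidean distance between log2 levels centred on each miRNA's mean, miR-378b was the nearest of 226 miRNAs to miR-378a-3p (distance 0.26, against a median of 1.15). The next were miR-146b-5p (0.27), miR-146a-5p (0.32), miR-30a-5p (0.35) and miR-29c-3p (0.40). The miR-146 pair is induced by inflammatory signalling and damps it, and miR-29 represses collagens. miR-146b-5p was at 630 (control) and 464 (diabetic) on day 5 and at 358 (control) and 271 (diabetic) on day 11, the same order of pools as miR-378a-3p. With the local background taken off, miR-30a-5p was the nearest. There miR-378b, miR-146b-5p and miR-146a-5p took places 53, 76 and 81, so the likeness depends on the processing.

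The nearest to miR-378a-5p were miR-93-5p (0.12), miR-301a-3p (0.14), miR-92a-3p (0.14), miR-193-3p (0.15) and miR-342-3p (0.17), against a median of 0.72. miR-93 and miR-92a belong to clusters that are active in dividing cells. miR-193-3p went from 300.4 to 187 in the control pools and from 314 to 294 in the diabetic pools, again lowest in control callus of day 11. With the local background taken off, miR-342-3p and miR-193-3p took places 2 and 7, and miR-93-5p, miR-301a-3p and miR-92a-3p places 119, 107 and 104.

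Because miR-378a is abundant in muscle, its course was set beside a fixed list of muscle miRNAs. Most are found in skeletal muscle, which may enter a callus sample with the tissue around the bone. The list also holds both arms of miR-208a, a miRNA of heart muscle, and the counts and medians below include it where detected. Of 14 on the array, 8 were detected on all 4 arrays, and miR-1-5p and miR-208b-5p were detected on none. On day 5, 10 were detected in the control and 12 in the diabetic pool, and on day 11, 8 in each. The summed level of those detected in a pool went from 28576 on day 5 to 9700.2 on day 11 in the control pools. In the diabetic pools it went from 30013 to 10331. From day 5 to day 11, 6 of 8 were lower in control callus, with a median of -1.52, and 7 of 8 in diabetic callus, with a median of -1.42; 5 and 6 of them were at least 2-fold lower, where 6.95 and 8.11% of all miRNAs were. miR-1-3p, which promotes muscle differentiation, went from 8527 to 2767 in control and from 8787 to 2564 in diabetic callus. miR-133a-3p, from the same transcripts as miR-1, was 2.97-fold lower in control and 3.25-fold lower in diabetic callus. miR-208a-5p was higher on day 11 in both groups (log2 1.56 and 1.90, or 0.18 and 0.97 with the local background taken off). miR-208b-3p was at 0.041 in control callus, or -0.20 with the local background taken off. The difference of miR-378a-3p had the same direction as the muscle medians and a smaller size, and the part of muscle tissue in it was not tested. Between diabetic and control callus the muscle median was 0.077 on day 5 and 0.23 on day 11, with miR-378a-3p at -0.20 and -0.27. After local background correction the muscle median was -0.010 on day 5 and 0.15 on day 11. There miR-378a-3p was at -0.31 and 0.090, so the opposite signs depend on the processing.

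**Figure D5:**
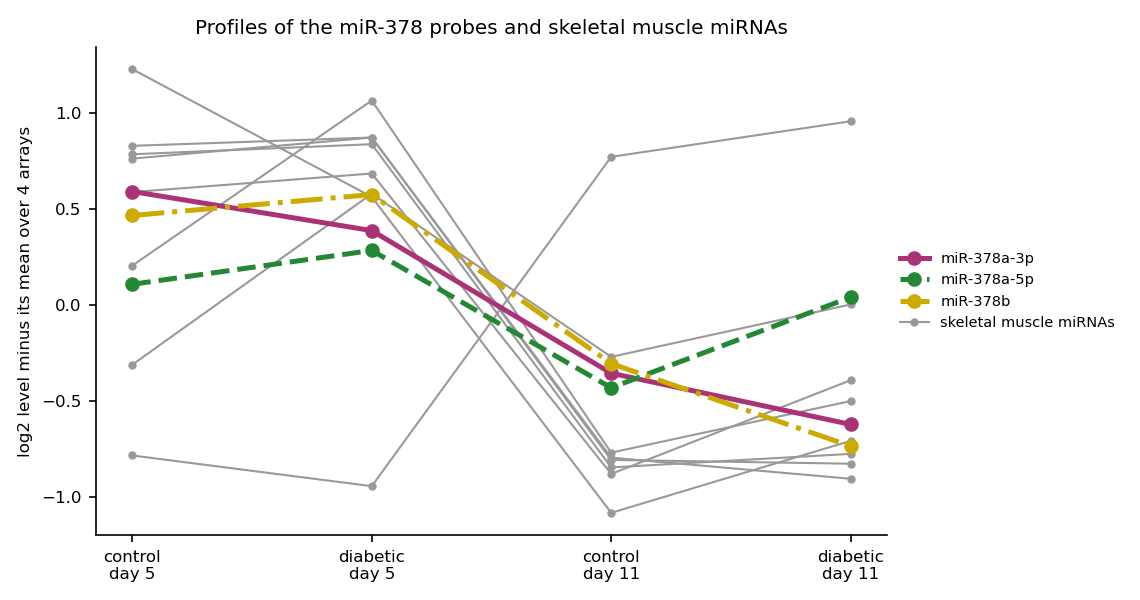
Log2 level minus its mean over the 4 arrays for miR-378a-3p, miR-378a-5p, miR-378b and the 8 miRNAs of the muscle list detected on all 4 arrays (grey). Most miRNAs of the list and miR-378a-3p are higher on day 5 than on day 11. The grey line that runs the other way is miR-208a-5p, from the heart miRNA of the list.

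The miRNAs used as markers of other cell types also differed between the days. The 4 leukocyte miRNAs, among them miR-223-3p of neutrophils, had a summed level that went from 8383 to 1229.8 in the control pools and from 5092 to 1479 in the diabetic pools, and all 4 were at least 2-fold lower on day 11 in both groups, beside 6.95% of all miRNAs in control and 8.11% in diabetic callus. The endothelial pair miR-126a-3p and miR-126a-5p went from 6973 to 3951 in the control pools and from 5492 to 4159.9 in the diabetic pools. The 4 chondrocyte miRNAs went the other way, from 2310 to 18169 in control and from 2557 to 5642 in diabetic callus. Of 3 erythroid miRNAs, 3 were detected in the diabetic day 5 pool and 2 in each other pool. The summed level of the detected ones went from 512 to 1591 in the control pools and from 1459.8 to 1556 in the diabetic pools. Their median for day 11 minus day 5 in control callus was 1.74, and -1.05 with the local background taken off, where miR-451-5p turned from 1.62 to -2.34. In pooled tissue, fewer cells that make miR-378a and less miR-378a per cell cannot be told apart, and the part of these cell types in its values was not tested.

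Other miRNAs linked to metabolism were set beside miR-378a. Of these, 7 lie in introns of the sterol regulator gene Srebf2 or of the pantothenate kinase genes, which make coenzyme A. On both control arrays 3 of the 7 were detected, with a median of -0.30 for day 11 minus day 5. Among these 3, 0 were 2-fold different, beside 13.9% of all miRNAs. In diabetic callus 5 of the 7 were detected, with a median of -0.20. The dim miR-103-1-5p was the 1 that was 2-fold lower, beside 8.11% of all miRNAs. miR-103-3p, which lowers insulin sensitivity in mice, went from 1062 to 792 in the control pools and from 963 to 849 in the diabetic pools. miR-33-5p, which represses the cholesterol exporter Abca1, went from 115 to 118 in the control pools and from 135 to 105 in the diabetic pools. Diabetic minus control values of this group were had from 4 miRNAs on each day, with 0 at the 2-fold limit, beside 6.84 and 8.78% of all miRNAs. Their median was -0.067 on day 5 and 0.058 on day 11, and 0.088 and 0.44 with the local background taken off. There miR-33-5p turned from 0.026 to -0.91 for day 11 minus day 5 in control callus, and miR-103-3p was at 0 in diabetic callus.

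Of 6 listed miRNAs of the miR-193 and miR-365 clusters, studied in mouse brown fat, the array held 2 under the listed names. Probes named miR-193-3p and miR-193-5p, without the letter of the listed names, were also on the array and were not counted. miR-365-3p went from 375 to 279 in the control pools and from 382 to 359.7 in the diabetic pools. miR-365-5p went from 169.5 to 439 and from 254 to 477. In diabetic callus miR-365-3p was at -0.086 for day 11 minus day 5, and at 0.16 with the local background taken off. miR-122-5p, the main miRNA of liver, was not detected on day 5, and the day 11 pools were at 15.8 (control) and 35.4 (diabetic), a log2 difference of 1.16 that was -0.17 with the local background taken off. The islet miRNA miR-375-3p was detected on none of the 4 arrays. The probe of its other arm, miR-375-5p, was detected on all 4, at levels between 19553 and 24585. Whether that probe reads only miR-375-5p was not tested, so these levels do not show how much miR-375 the callus held.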

How the data were processed

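RNA from pooled callus was labelled with Cy5 and measured on 3D-Gene arrays, per the labels' protocols. Per the file headers, the scanner files give a median intensity at 635 nm for every spot and for the local background around it, with nothing subtracted, and no miRNA spot was marked unusable. The authors' deposited value table holds linear intensities, and how it was made is not given in the sources used here. It equals the spot minus the blank mean times 1 factor per array that sets the listed median to 25.0, within 0.114%.

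Here the mean of the blank spots (5% left out at each end) was subtracted and the median of 400 miRNAs set to 100. The local background was not used for the levels because it followed the spot across miRNA probes. Alternatives were normexp (limma 3.58.1, R 4.3.3, offset 50) on the local background with quantile normalisation or on the blank mean, blank subtraction with quantile normalisation, the deposited values, 75th percentile scaling, and other detection limits. The steps were tested on simulated data whose local background was drawn without regard to the spot. The simulation therefore does not cover a local background that follows the spot, as on these arrays. Python 3.11.15 did the rest.

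No test was run, since each group has 1 array, and the number of arrays limits the precision. Named miRNAs are the arms, miR-378 relatives, the fixed lists and the 5 nearest profiles per arm among miRNAs 10 or more blank SDs over the blank mean on all arrays. Members and lists were chosen with earlier results of these data known.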

Additional observations from a re-analysis of the deposited data

How the results depend on the processing

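Of 40 alternative values for the arms' differences, 23 moved by less than the technical error, 14 moved by more and 3 changed sign. With normexp on the local background, miR-378a-3p was at 0.090 (day 11, diabetic minus control), -1.14 (control over time) and -0.74 (diabetic over time), and miR-378a-5p at 0.23, -0.053 and 0.022. In the authors' deposited values miR-378a-3p was at 0.099 (day 5) and -1.30 (diabetic over time) and miR-378a-5p at 0.48 and -0.54. Their medians over all miRNAs were 0.34, -0.028, 0.10 and -0.29 in the order of day 5, day 11, control and diabetic over time. Relative to the median of day 5, miR-378a-3p was at -0.24 and miR-378a-5p at 0.14, as in the main values relative to their own median. Blank subtraction with quantile normalisation gave -0.33 and -0.41 for miR-378a-3p on days 5 and 11. Normexp on the blank mean gave -0.60 (day 11) and -1.24 (diabetic over time) for miR-378a-3p, and 0.28 (day 11) and -0.31 (control over time) for miR-378a-5p. 75th percentile scaling, which moved the medians to 0.105 (day 11) and 0.14 (diabetic over time), gave -0.88 for miR-378a-3p in diabetic callus over time. There 3 of 5 alternatives fell short of 2-fold, the third being blank subtraction with quantile normalisation at -0.94. Other causes were not tested.

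The number of 2-fold different miRNAs on day 5 was 32, and 2 with either normexp setting, 52 in the deposited values, 19 with detection at 3 SD and 61 without a detection limit. Normexp on the blank mean also gave 11, 28 and 15 in place of 38, 62 and 53 for day 11, control and diabetic over time, and for the last of these normexp on the local background gave 17 and no detection limit 82. The split of higher against lower on day 5 was 20 to 12, and 47 to 5 in the deposited and 13 to 21 in the quantile values. In diabetic callus over time it was 17 to 36, and 8 to 62 in the deposited, 30 to 27 in the quantile and 28 to 27 in the 75th percentile values.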
